A study of Homo sapiens with 12 samples.

Results

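The smooth-muscle contractile genes are the genes of actin filaments and their motor that give smooth muscle cells and myofibroblasts their pulling force. The group examined here held 10 genes, chosen by symbol as the contractile set of the myofibroblast. They were ACTA2 (ENSG00000107796, chromosome 10), ACTG2 (ENSG00000163017, chromosome 2), TAGLN (ENSG00000149591, chromosome 11), CNN1 (ENSG00000130176, chromosome 19), MYL9 (ENSG00000101335, chromosome 20), MYH11 (ENSG00000133392, chromosome 16), TPM1 (ENSG00000140416, chromosome 15), TPM2 (ENSG00000198467, chromosome 9), CALD1 (ENSG00000122786, chromosome 7) and LMOD1 (ENSG00000163431, chromosome 1). All 10 were found among the 62069 genes of the count table, and all 10 were among the 15284 genes with enough counts to be tested.

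The libraries came from IMR90 ER:RAS cells at passage p13, human fetal lung fibroblasts that carry an oncogenic RAS fused to an estrogen receptor domain. Adding 4-hydroxytamoxifen (4OHT) activates the fusion and brings the cells into oncogene-induced senescence (OIS). There were 4 groups of 3 libraries each, all collected at day 5. The vector group was not induced, and the vector/4OHT group was treated with 100 nM 4OHT. The shXPO7_3/4OHT and shXPO7_5/4OHT groups received the same 4OHT treatment and each carried a different short hairpin RNA (shRNA) against XPO7, a nuclear transport receptor. All 4 groups share the ER:RAS transgene, and no knockdown library was made without 4OHT. The labels name the libraries of a group by letters (T, A and C for vector, T, A and B for the others) but do not say whether these came from separate cultures. The p-values rest on library-to-library spread alone, and that spread may be technical.

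In smooth muscle, the actins of ACTA2 and ACTG2 form filaments along which the myosin heavy chain of MYH11 pulls. The regulatory light chain of MYL9 turns that motor on when myosin light chain kinase phosphorylates it. Transgelin, calponin, caldesmon and the tropomyosins bind along the filament and stabilise it or hold the motor back, and leiomodin starts new filaments. Fibroblasts take up many of these genes when they turn into myofibroblasts in a healing wound. Serum response factor (SRF) binds a short DNA element, the CArG box, at many of these genes and works there with the coactivators myocardin (MYOCD) and the myocardin-related factors MRTFA and MRTFB.

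RefSeq promoters (GRCh38.p14) were matched to 7 of the 10 genes, in 12 entries, and were read over the 250 bases before the start. They are shown because the CArG box, CC and GG around a run of A and T, is the element that ties this group to SRF. TAGLN, MYL9 and MYH11 had no entry. A CArG box was in 1.16% of 35116 promoters, and a CArG-like element, with a single G or C within the run, in 5.96%. Both elements were read on both strands, on which they are the same. Among the contractile genes, ACTG2 held 2 CArG boxes, ACTA2 held 2 CArG-like elements in 1 of its 2 promoters, and CALD1 held 1 CArG-like element in 1 of its 4 promoters. No such letters were found in these windows for CNN1, TPM1, TPM2 or LMOD1. The stretches below are free of annotated exon bases, and capitals mark the elements.
ACTG2 (chr2:73892758-73892943, plus strand): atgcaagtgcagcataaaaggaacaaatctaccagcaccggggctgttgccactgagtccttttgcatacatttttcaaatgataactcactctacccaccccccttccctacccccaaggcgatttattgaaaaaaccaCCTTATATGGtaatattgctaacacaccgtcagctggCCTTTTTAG
ACTA2 (chr10:88952774-88953023, minus strand): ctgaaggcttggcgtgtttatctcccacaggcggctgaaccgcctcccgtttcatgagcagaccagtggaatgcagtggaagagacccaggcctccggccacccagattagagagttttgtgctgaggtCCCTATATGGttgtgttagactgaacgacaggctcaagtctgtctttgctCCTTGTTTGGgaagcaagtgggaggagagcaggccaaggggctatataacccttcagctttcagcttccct
LMOD1 (chr1:201946589-201946798, minus strand): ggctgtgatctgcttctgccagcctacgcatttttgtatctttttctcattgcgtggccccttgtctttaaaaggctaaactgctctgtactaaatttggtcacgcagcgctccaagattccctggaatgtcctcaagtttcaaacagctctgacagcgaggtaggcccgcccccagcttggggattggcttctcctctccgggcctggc

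The ACTG2 boxes read CCTTATATGG, from 110 to 101 bases before the start, and CCTTTTTAGG, from 73 to 64 bases before it. The last G of the nearer box lies in an annotated exon and was left off the stretch. The ACTA2 elements read CCCTATATGG, from 121 to 112 bases before the start, and CCTTGTTTGG, from 71 to 62 bases before it. The element CATTCC, which TEAD factors bind, was in 11.9% of all promoters on either strand and was found once each in ACTA2 and LMOD1 and in 2 promoters of CALD1. TATAAA was in 10.7% of all promoters and was found in ACTG2 and CALD1. None of these letters overlapped another element. They describe the sequence, and binding was not measured in these libraries.

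Total counts per library ran from 28534141 to 60397769, so that 3 counts in a library stood for 0.0506 to 0.106 CPM (counts scaled to library size with TMM factors). XPO7, the gene the shRNAs target, was at 135 ± 7.04 CPM in vector and 137 ± 8.81 CPM in vector/4OHT (mean ± SD, n = 3). It was at 27.7 ± 1.14 CPM with shXPO7_3 and at 52.2 ± 1.62 CPM with shXPO7_5. The knockdown left 20.3% and 38.2% of the vector/4OHT level, with adjusted p of 1.24e-08 and 3.27e-06 by edgeR's quasi-likelihood test. Fibroblast markers were high in every library, with a summed level of 15857 to 26763 CPM over 8 genes. The endothelial markers CDH5 and PECAM1, the skeletal muscle factors MYOD1 and MYOG and the T cell gene CD3E were at 0 in all 12 libraries. The third endothelial marker, VWF, was detected in every library, with 60 to 191 counts (1.70 to 4.17 CPM). The 3 epithelial markers summed to 0.505 to 1.24 CPM, and the 3 immune markers to at most 0.0604 CPM. Of 7 genes that mark mature smooth muscle, CASQ2 was at 0 in every library and the list summed to 20.5 to 38.2 CPM, far below the fibroblast list.

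The contractile genes differed widely in level. Per kb of the principal transcript, TPM2 was highest in every group, with 955 ± 63.8 CPM per kb in vector and 925 ± 40.1 in vector/4OHT (n = 3). CNN1, LMOD1 and MYH11 held the last places in that order in all 4 groups, with vector levels of 29.5 ± 1.64, 10.6 ± 0.716 and 0.0969 ± 0.0361 CPM per kb. MYH11, the motor that defines the mature smooth muscle cell, had only 3 to 27 counts in a library. In vector, TAGLN followed at 479 ± 27.1, MYL9 at 324 ± 32.0, ACTA2 at 268 ± 15.3, ACTG2 at 193 ± 13.2 and CALD1 at 191 ± 47.3 CPM per kb, and the neighbours ACTG2 and CALD1 differed by less than their spread. In vector/4OHT the order changed. TAGLN, at 203 ± 9.12 CPM per kb, came below MYL9 at 250 ± 3.20 and next to CALD1 at 204 ± 18.2, from which it differed by less than the spread. The place of TPM1 depended on the length used, since it was in place 2 of every group with its principal transcript and in place 6 or 7 with all its exons merged.

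**Figure D1:**
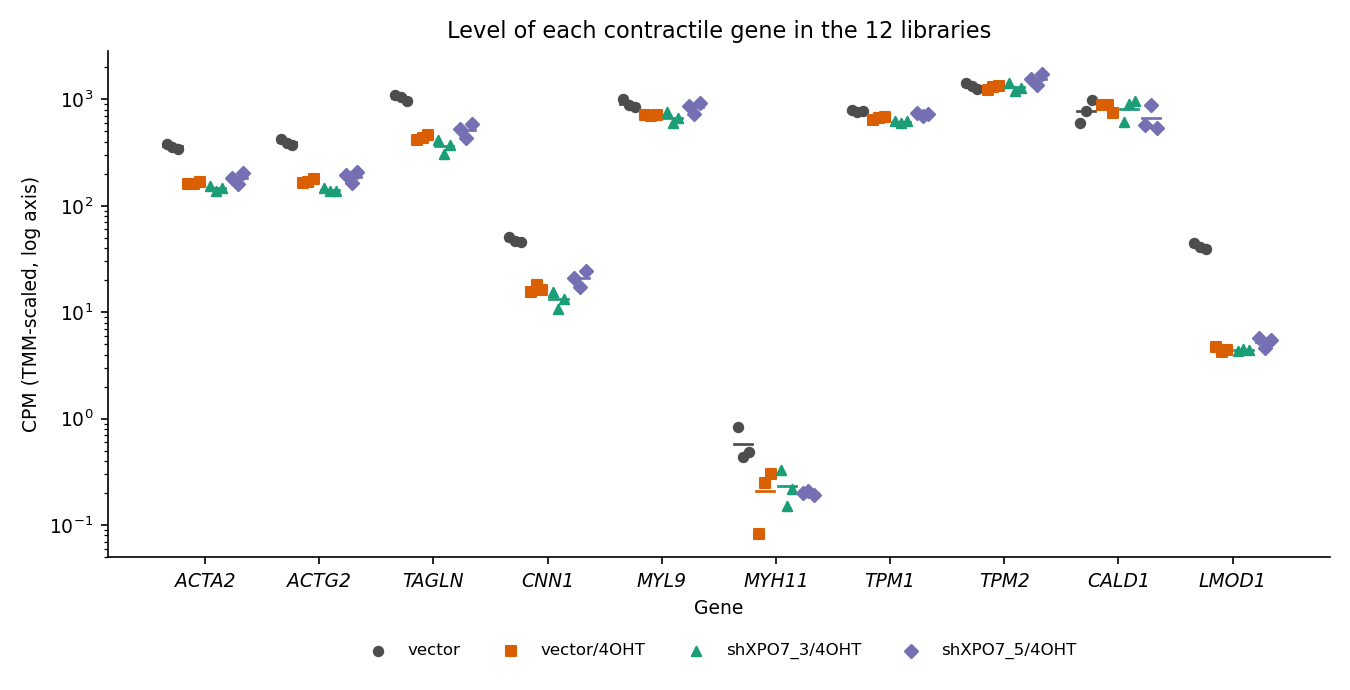
CPM of the 10 contractile genes on a log axis, with 1 point per library, colours and marker shapes for the 4 groups and short lines for the group means. The 3 vector libraries of ACTA2, ACTG2, TAGLN, CNN1 and LMOD1 stand clear above all RAS-induced libraries, while TPM2 and CALD1 overlap across groups.

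The first comparison, vector/4OHT against vector, shows the contractile genes in OIS. Of the 10 genes, 8 fell at an adjusted p under 0.05 and none rose, where 50.9% of all genes tested were called in either direction and 26.1% were called lower. A fall of at least 1 on the log2 scale was reached by 6 of the 10, against 10.1% of all genes. The median log2 fold change was -1.20 over the 10 genes and -0.0068 over all genes tested. In 8 genes the vector/4OHT libraries all lay below the vector libraries, but the share of all genes that did so was not counted. In the same comparison 4 of 8 fibroblast markers fell and none rose, and their summed level was 23054 to 26763 CPM in vector and 15857 to 17239 CPM in vector/4OHT. The part of that shift in the contractile genes was not tested. In bulk RNA, fewer cells that express a gene and less of its RNA per cell cannot be told apart.

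The smooth-muscle actins fell by similar amounts. ACTA2 was at 385, 356 and 345 CPM in the vector libraries T, A and C and at 161, 160 and 166 CPM in the vector/4OHT libraries T, A and B. ACTG2 was at 429, 389 and 376 CPM in vector and at 163, 168 and 178 CPM in vector/4OHT. In both genes every induced library lay below every uninduced library, and the induced libraries lay closer together. The log2 fold change was -1.16 for ACTA2 (SE 0.09, adjusted p = 2.65e-07) and -1.23 for ACTG2 (SE 0.09, adjusted p = 2.56e-07). The mRNAs of the actins are close copies of each other over the coding sequence, and no source used here gives how reads with several matches were counted, so the split between ACTA2 and ACTG2 is uncertain. ACTA2 also shares 380 exon bases with FAS, which had 16721 counts over the 12 libraries against 94982 for ACTA2. It shares 516 with its antisense gene ACTA2-AS1, which had 438 counts. Both genes lie on the opposite strand, and no source used here gives the strand setting of the counting.

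The cytoplasmic actins ACTB and ACTG1, which every cell uses, also fell, by 0.62 (adjusted p = 0.000194) and 0.36 (adjusted p = 0.00906) on the log2 scale. The cardiac actin ACTC1 fell by 1.63 (adjusted p = 8.93e-05) from a low level of 1.86 ± 0.426 CPM. Per kb, ACTA2 and ACTG2 made up 7.72% ± 0.202 of the summed actin level in vector and 4.98% ± 0.0907 in vector/4OHT (n = 3). The smooth-muscle actins therefore took a smaller share of all actin, with no overlap between the libraries. With 3 libraries against 3, the exact two-sided permutation test of such a share cannot go below 0.1, and it was 0.1 here.

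The small actin-binding proteins went the same way. TAGLN encodes transgelin (SM22-alpha), an early marker of the smooth muscle line. It was at 1089, 1048 and 974 CPM in the vector libraries and at 420, 439 and 459 CPM in the vector/4OHT libraries, a log2 fold change of -1.24 (SE 0.12, adjusted p = 3.49e-06). CNN1 encodes calponin 1, which binds actin and slows the motor. Its level was 51.2, 47.2 and 46.1 CPM in vector and 15.4, 17.9 and 16.2 CPM in vector/4OHT, giving a log2 fold change of -1.55 (SE 0.14, adjusted p = 1.99e-06). Neither gene had overlapping groups. Their broadly expressed relatives fell less or were not called. TAGLN2 fell by 0.54 and CNN2 by 0.72 on the log2 scale (adjusted p = 0.000388 and 9.36e-05), and CNN3 was at 0.014 (adjusted p = 0.856). TAGLN took 68.2% ± 0.492 of the summed transgelin level per kb in vector and 56.9% ± 0.304 in vector/4OHT. CNN1 took 6.46% ± 0.124 of the calponins in vector and 2.84% ± 0.214 in vector/4OHT. TAGLN shares 446 of its exon bases with PCSK7 on the opposite strand, which had 35801 counts over all libraries against 261873 for TAGLN.

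The motor genes fell to different degrees. MYH11, the smooth-muscle myosin heavy chain, had 27, 18 and 17 counts in the vector libraries (0.834, 0.437 and 0.482 CPM) and 3, 7 and 15 counts in the vector/4OHT libraries (0.082, 0.248 and 0.303 CPM). The groups did not overlap, but the highest vector library stood well apart from the others. The log2 fold change was -1.41 (SE 0.41, adjusted p = 0.0130). Without vector library T it was -1.07 and no longer called (adjusted p = 0.0559). MYH11 shares 765 of its exon bases, 4.75%, with NDE1 on the opposite strand, which had 9177 counts over the 12 libraries against 137 for MYH11. NDE1 itself was at -0.11 (adjusted p = 0.337). No source used here gives the strand setting of the counting, so reads of the shared bases cannot be assigned with certainty.

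The nonmuscle heavy chains, which drive contraction in fibroblasts, were far more abundant and fell as well. MYH10 went from 198 ± 11.7 to 62.0 ± 3.62 CPM, a log2 fold change of -1.68 (adjusted p = 8.11e-09). MYH9 went from 2830 ± 195 to 1711 ± 83.0 CPM, a log2 fold change of -0.73 (adjusted p = 2.75e-05). MYH11 was 0.0239% ± 0.00741 of the summed level of the 3 heavy chains per kb in vector and 0.0152% ± 0.00861 in vector/4OHT, with overlapping libraries.

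MYL9, the regulatory light chain, fell only slightly. It was at 1015, 889 and 840 CPM in the vector libraries and at 707, 694 and 711 CPM in the vector/4OHT libraries. The groups did not overlap, and the log2 fold change was -0.38 (SE 0.11, adjusted p = 0.0101). The nonmuscle regulatory light chain MYL12A rose by 0.24 on the log2 scale (adjusted p = 0.00210), and MYL12B was at 0.14 (adjusted p = 0.0845). The essential light chain MYL6 was at -0.14 (adjusted p = 0.283). MYL9 went from 36.2% ± 2.88 to 27.6% ± 0.604 of the 3 regulatory light chains per kb.

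The tropomyosins and caldesmon, which cover actin filaments in nearly every cell type, differed least. TPM1 was at 799, 765 and 783 CPM in vector and at 647, 664 and 680 CPM in vector/4OHT, giving a log2 fold change of -0.24 (SE 0.05, adjusted p = 0.00242) with no overlap. TPM2 was at 1420, 1328 and 1242 CPM in vector and at 1225, 1311 and 1329 CPM in vector/4OHT, with a log2 fold change of -0.046 (95% interval -0.25 to 0.16, adjusted p = 0.705), which was 0.070 once a trend on GC content and gene length was removed. CALD1 was at 597, 770 and 986 CPM in vector and at 878, 887 and 753 CPM in vector/4OHT, with a log2 fold change of 0.10 (95% interval -0.39 to 0.58, adjusted p = 0.737). The libraries of TPM2 and of CALD1 overlapped between the groups, and CALD1 varied more among the vector libraries than between the groups. Among the other tropomyosins, TPM4 fell by 0.38 (adjusted p = 0.000125) and TPM3 was at 0.0086 (adjusted p = 0.924). TPM1 and TPM2 together were 57.6% ± 1.03 of the summed tropomyosin level per kb in vector and 59.4% ± 0.180 in vector/4OHT. Tropomyosins and caldesmon are spliced into smooth-muscle and nonmuscle forms, which counts per gene do not tell apart.

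LMOD1, the smooth-muscle leiomodin that nucleates actin filaments, changed most. It was at 45.2, 41.5 and 39.7 CPM in the vector libraries and at 4.76, 4.25 and 4.44 CPM in the vector/4OHT libraries. No other contractile gene separated the groups as far. The induced cells held 10.7% of the vector level, a log2 fold change of -3.23 (SE 0.10, adjusted p = 1.39e-10). TMOD3, the tropomodulin of nonmuscle cells and a relative of the leiomodins, was at 0.21 (adjusted p = 0.336).

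**Figure D2:**
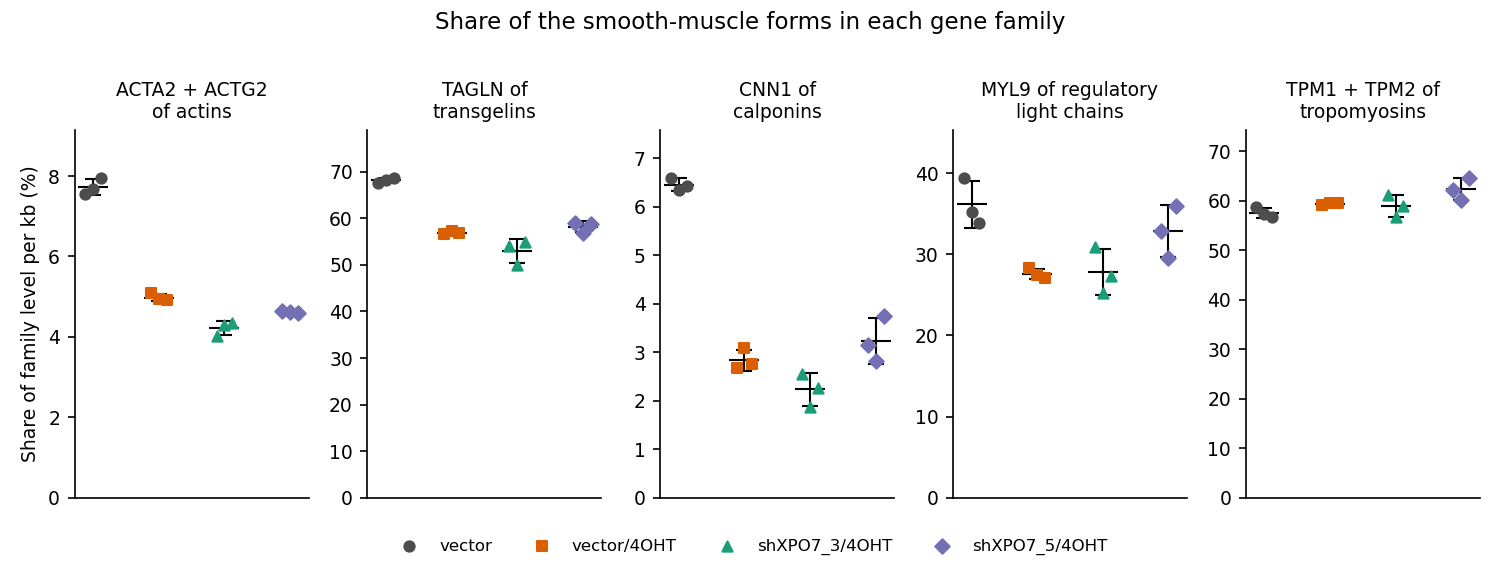
Share of the smooth-muscle forms in the summed level per kb of their gene family, in percent, with 1 point per library and the mean and SD of each group (n = 3). The actin, transgelin and calponin shares are lower in all RAS-induced libraries than in any vector library, and the tropomyosin share stays between 56.6% and 64.6% in all 12 libraries.

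The known regulators of these genes were looked at next. Of 8 regulators, 5 fell and none rose, where 50.9% of all genes tested were called, 26.1% lower and 24.8% higher. KLF4, a repressor of smooth-muscle genes that also has other roles, fell most, from 17.1 ± 1.03 to 2.86 ± 0.469 CPM (log2 fold change -2.59, adjusted p = 2.41e-08). The coactivator MRTFB fell by 0.59 on the log2 scale (adjusted p = 0.000158), the transcription factor GATA6 by 0.66 (adjusted p = 0.000819) and the SRF cofactor FHL2 by 0.40 (adjusted p = 0.000534). MYOCD, the master coactivator of smooth muscle, went from 7.71 ± 0.444 to 6.47 ± 0.359 CPM, a log2 fold change of -0.25 (adjusted p = 0.0355). SRF itself was at 0.17 (adjusted p = 0.181), MRTFA at 0.029 (adjusted p = 0.853) and the ETS factor ELK1 at 0.22 (adjusted p = 0.124). The median of the 8 regulators was -0.33.

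Of 8 genes that switch the motor on and off, 4 fell and none rose, with a median of -0.50. The called share of 4 in 8 was close to the 50.9% of all genes tested, of which 26.1% were lower and 24.8% higher. MYLK, the kinase of the regulatory light chain, went from 913 ± 42.7 to 376 ± 5.41 CPM (log2 fold change -1.28, adjusted p = 1.99e-09). The phosphatase inhibitor PPP1R14A (CPI-17) fell by 0.72 (adjusted p = 0.0246), the phosphatase subunit PPP1R12B by 0.69 (adjusted p = 3.13e-05) and the small GTPase RHOA by 0.47 (adjusted p = 0.000517). PPP1R12A, PPP1CB, ROCK1 and ROCK2 were not called.

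For the lists that follow, the shares over all genes tested were 50.9% called, 26.1% lower and 24.8% higher. Among 13 nonmuscle relatives of the contractile genes, 7 fell and 1 rose, with a median of -0.36. Of 6 striated muscle relatives only ACTC1 and the troponin gene TNNT2 had enough counts to be tested, and both fell, TNNT2 by 2.64 (adjusted p = 0.000154) from 0.400 ± 0.117 CPM. Among 14 other proteins of stress fibres and their anchors, 8 fell and 2 rose, with a median of -0.41. The muscle intermediate filament gene DES fell by 3.74 (adjusted p = 4.47e-07) from 2.75 ± 0.350 CPM, the actin bundler SYNPO2 by 1.39 (adjusted p = 0.000499), the focal adhesion protein TGFB1I1 (Hic-5) by 0.76 (adjusted p = 7.26e-05) and the actin cross-linker FLNA by 0.72 (adjusted p = 0.000148). SMTN, which encodes smoothelin, was called higher at 0.61 (adjusted p = 0.000333), and PDLIM5, a scaffold on the actin cytoskeleton, at 0.34 (adjusted p = 0.0151). DES, SYNPO2 and MYOCD are also on the list of 7 mature smooth muscle markers. In that list 2 other genes were called higher, PLN at 2.52 (adjusted p = 0.000828, 1 to 3 counts in a vector library) and RGS5 at 0.68 (adjusted p = 0.0409), and KCNMB1 and CASQ2 were not tested.

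The genes of the TGF-beta response and matrix that accompany the contractile genes in myofibroblasts were examined as well. Of 11 genes, 6 rose and 3 fell, with a median of 0.48, where 24.8% of all genes tested were called higher and 26.1% lower. PMEPA1, a feedback target of TGF-beta, rose by 1.96 (adjusted p = 1.60e-09). The matricellular gene POSTN rose by 1.72 (adjusted p = 0.00206), TGFB1 by 1.10 (adjusted p = 1.63e-06) and the collagen-binding integrin ITGA11 by 0.77 (adjusted p = 5.68e-05). CCN2, COL3A1 and COL1A1 fell by 0.21, 0.21 and 0.45.

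The 5 genes most like ACTA2, by Pearson correlation of log2 CPM over the 12 libraries among genes with an average of at least 2 log2 CPM, were FBLN2 (r = 0.997), HSPB6 (r = 0.996), GAS6 (r = 0.995), CAPG (r = 0.995) and GPR161 (r = 0.995). FBLN2 is a matrix protein, HSPB6 a small heat shock protein of muscle, GAS6 a secreted ligand of receptor tyrosine kinases, CAPG an actin-capping protein and GPR161 a receptor of the primary cilium. Their log2 fold changes in OIS ran from -2.14 for GAS6 to -0.95 for GPR161. Among the contractile genes the correlation with ACTA2 was 0.996 for ACTG2, 0.991 for TAGLN, 0.986 for CNN1 and 0.980 for LMOD1, and it was 0.099 for TPM2 and -0.18 for CALD1. Over the 9 RAS-induced libraries alone it was 0.965 for ACTG2, 0.977 for TAGLN, 0.887 for TPM2, -0.77 for CALD1 and 0.046 for MYH11, which was at 0.792 over all 12. These values are descriptions. In the 12 libraries the vector group stands apart, and the 9 RAS-induced libraries share the GC trends given further on.

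The second comparison set each XPO7 shRNA against vector/4OHT and asked whether the contractile genes returned when XPO7 was depleted in RAS-induced cells. No contractile gene was called with either shRNA. In all genes tested, 0.124% were called with shXPO7_3 and 0.589% with shXPO7_5. With DESeq2 the count was also 0 of 10 for each shRNA. At an unadjusted p under 0.05 there were 3 of 10 with shXPO7_3, against 6.41% of all genes, and 5 of 10 with shXPO7_5, against 21.6% of all genes. Both comparisons use the same vector/4OHT libraries.

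The shRNAs pointed to opposite sides. With shXPO7_3, 8 of the 10 genes had a fold change below 0, with a median of -0.080 on the log2 scale. With shXPO7_5, 8 of the 10 were above 0, with a median of 0.19. The medians over all genes tested were -0.0031 and 0.0058.

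The actins were among these genes. ACTA2 was at 155, 137 and 148 CPM in shXPO7_3 libraries T, A and B and at 184, 160 and 202 CPM in the same letters of shXPO7_5. The vector/4OHT libraries, at 160 to 166 CPM, lay above all shXPO7_3 libraries and overlapped shXPO7_5. The log2 fold changes against vector/4OHT were -0.15 (95% interval -0.33 to 0.04, adjusted p = 0.948) and 0.16 (95% interval -0.02 to 0.35, adjusted p = 0.257). ACTG2 was at 146, 137 and 139 CPM with shXPO7_3, below all vector/4OHT libraries, and at 194, 162 and 209 CPM with shXPO7_5, overlapping them. Its log2 fold changes were -0.27 (95% interval -0.46 to -0.08, adjusted p = 0.483) and 0.15 (95% interval -0.04 to 0.35, adjusted p = 0.286).

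TAGLN and CNN1 followed the actins. TAGLN was at 417, 307 and 372 CPM with shXPO7_3 and at 524, 430 and 583 CPM with shXPO7_5, with log2 fold changes of -0.26 (adjusted p = 0.763) and 0.22 (adjusted p = 0.264). CNN1 was at 15.5, 10.7 and 13.4 CPM with shXPO7_3 and at 20.8, 17.5 and 24.6 CPM with shXPO7_5, with log2 fold changes of -0.31 (adjusted p = 0.763) and 0.35 (adjusted p = 0.209). In every one of these genes, library A was the lowest of both shRNA groups.

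MYL9 was at 760, 601 and 663 CPM with shXPO7_3, on both sides of vector/4OHT, and at 875, 727 and 926 CPM with shXPO7_5, above all vector/4OHT libraries. The log2 fold changes were -0.061 (adjusted p = 0.999) and 0.26 (adjusted p = 0.212). MYH11 had 5 to 13 counts with shXPO7_3 and 6 to 7 with shXPO7_5. The 95% intervals of its log2 fold changes ran from -0.89 to 1.11 and from -1.16 to 0.97.

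TPM1 was at 628, 598 and 632 CPM with shXPO7_3, below all vector/4OHT libraries, and at 741, 695 and 731 CPM with shXPO7_5, above all of them. Its log2 fold changes were -0.10 (adjusted p = 0.894) and 0.12 (adjusted p = 0.219). TPM2 was at 1421, 1208 and 1279 CPM with shXPO7_3 and at 1564, 1354 and 1741 CPM with shXPO7_5, with log2 fold changes of 0.016 (adjusted p = 0.999) and 0.27 (adjusted p = 0.177). CALD1 was at 608, 899 and 956 CPM with shXPO7_3 and at 572, 880 and 539 CPM with shXPO7_5, with log2 fold changes of -0.032 (adjusted p = 0.999) and -0.34 (adjusted p = 0.326). CALD1 thus ran the other way from the rest in the shXPO7_5 libraries T and B.

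LMOD1, which fell most in OIS, stayed low. It was at 4.34, 4.56 and 4.42 CPM with shXPO7_3 and at 5.76, 4.59 and 5.51 CPM with shXPO7_5, against 39.7 to 45.2 CPM in vector. The log2 fold changes against vector/4OHT were -0.017 (95% interval -0.24 to 0.20) and 0.24 (95% interval 0.02 to 0.46), with adjusted p of 0.999 and 0.219. The knockdown groups held 10.5% and 12.6% of the vector mean.

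In 7 of the 10 genes (ACTA2, ACTG2, TAGLN, CNN1, MYH11, TPM1 and LMOD1) all 6 knockdown libraries lay below all 3 vector libraries. How many of all genes did so was not counted. ACTA2 stood at 40.5% and 50.1% of the vector mean with shXPO7_3 and shXPO7_5, where vector/4OHT stood at 44.8%. CNN1 stood at 27.5% and 43.5%, where vector/4OHT stood at 34.2%.

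**Figure D3:**
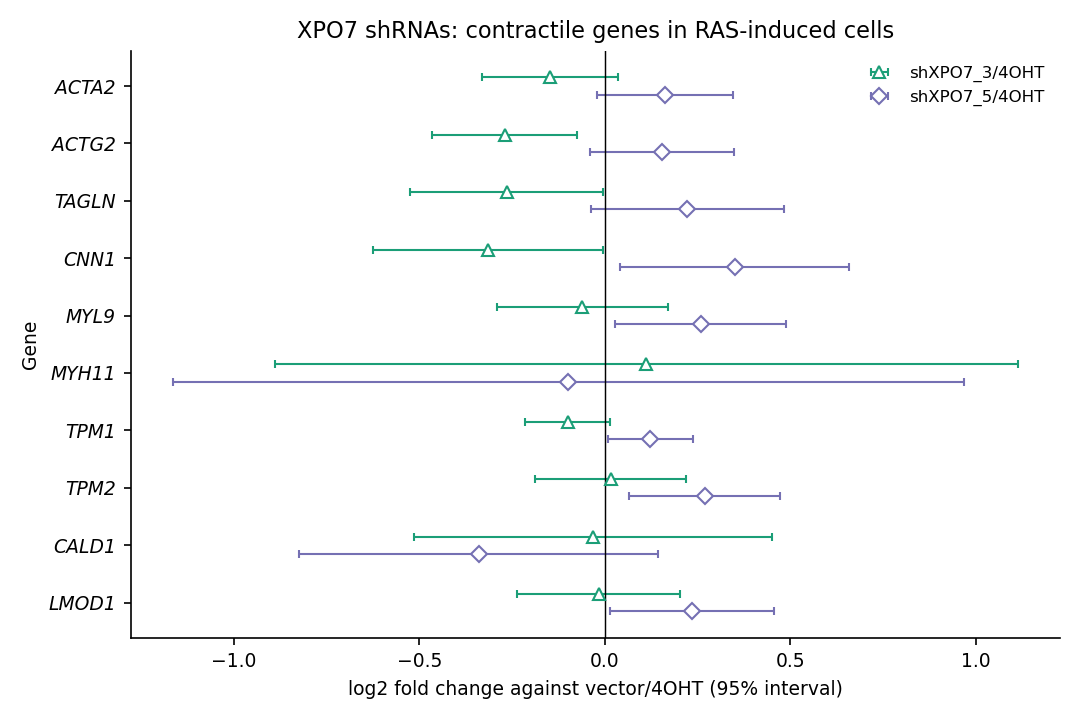
log2 fold change of each contractile gene with shXPO7_3 (triangles) and shXPO7_5 (diamonds) against vector/4OHT, with 95% intervals from the edgeR fit, and open symbols because none had an adjusted p under 0.05. For 7 of the 10 genes the shXPO7_3 point lies below 0 and the shXPO7_5 point above it.

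Set directly against each other, shXPO7_5 was above shXPO7_3 in 8 of the 10 genes, with a median of 0.28. No contractile gene was called, and 0.0131% of all genes were. At an unadjusted p under 0.05 there were 8 of 10, against 11.9% of all genes. In 6 of 10 all shXPO7_5 libraries lay above all shXPO7_3 libraries, against 5.54% of all genes. The sizes were 0.66 for CNN1 (95% interval 0.35 to 0.97, adjusted p = 0.310), 0.49 for TAGLN (0.23 to 0.75, adjusted p = 0.385), 0.42 for ACTG2 (0.23 to 0.62, adjusted p = 0.310), 0.31 for ACTA2 (0.13 to 0.49, adjusted p = 0.388), 0.25 for LMOD1 (0.03 to 0.47, adjusted p = 0.388) and 0.22 for TPM1 (0.11 to 0.34, adjusted p = 0.363). By DESeq2, CNN1 and ACTG2 were called in this comparison (adjusted p = 0.0177 and 0.0376), among 27 genes called in all.

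The libraries differed in how their counts moved with the GC content of genes. The Spearman correlation across 14864 genes between a gene's GC content and its log2 ratio against the average of vector/4OHT (0.5 CPM added to both) was 0.63, 0.13 and 0.79 in shXPO7_5 libraries T, A and B, 0.59, -0.36 and -0.25 in shXPO7_3 libraries T, A and B, and -0.18, -0.21 and 0.32 in vector/4OHT libraries T, A and B. The vector libraries T, A and C were at 0.31, 0.13 and -0.05. The fold changes of all genes correlated with GC content at 0.67 for shXPO7_5, 0.11 for shXPO7_3, 0.70 for shXPO7_5 against shXPO7_3 and -0.13 for OIS. CALD1 has the lowest GC content of the group at 46.7%, the 39.0 percentile of the genes tested, and MYL9 the highest at 60.9%, the 87.6 percentile.

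In 8 of the 10 genes, MYH11 and CALD1 excepted, the highest knockdown libraries were shXPO7_5 B and T, which also had the strongest positive GC trends. CALD1 was lowest in the same pair. The shXPO7_3 library T, with a trend of 0.59, lay below the vector/4OHT mean in 7 genes on the log2 scale. These were CALD1 at -0.46, ACTG2 at -0.22, CNN1 at -0.082, TPM1 at -0.079, TAGLN at -0.072, ACTA2 at -0.070 and LMOD1 at -0.046. In the same library MYL9 was at 0.11, TPM2 at 0.14 and MYH11, with few counts, at 0.85. The part of the GC trend in the knockdown values was not tested beyond the following refit. A smooth trend on GC content and gene length was removed from each library. The shXPO7_5 log2 fold changes then shrank to 0.05 for TAGLN, 0.18 for CNN1, 0.08 for MYL9 and 0.10 for TPM2. They were 0.10 for ACTA2, 0.08 for ACTG2 and 0.12 for LMOD1. TPM1 changed little, from 0.12 to 0.10, as did CALD1, from -0.34 to -0.28. MYH11, with few counts, went from -0.098 to -0.21. None of the 10 genes was called. The shXPO7_3 values stayed close to before, and ACTG2 at -0.28 (adjusted p = 0.0188) and TAGLN at -0.29 (adjusted p = 0.0388) were then called lower. They were among 304 genes called in all with the offset, where 19 were called without it. The direct comparison then gave 0.36 for ACTG2 (adjusted p = 0.0215), which was called, and 0.51 for CNN1 (adjusted p = 0.0504) and 0.34 for TAGLN (adjusted p = 0.0578), which were not. There the offset called 23 genes in all, against 2 without it. Without shXPO7_5 library A, 7 contractile genes were called higher with shXPO7_5, from 0.25 for ACTA2 to 0.47 for CNN1, among 3789 called in all genes.

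**Figure D4:**
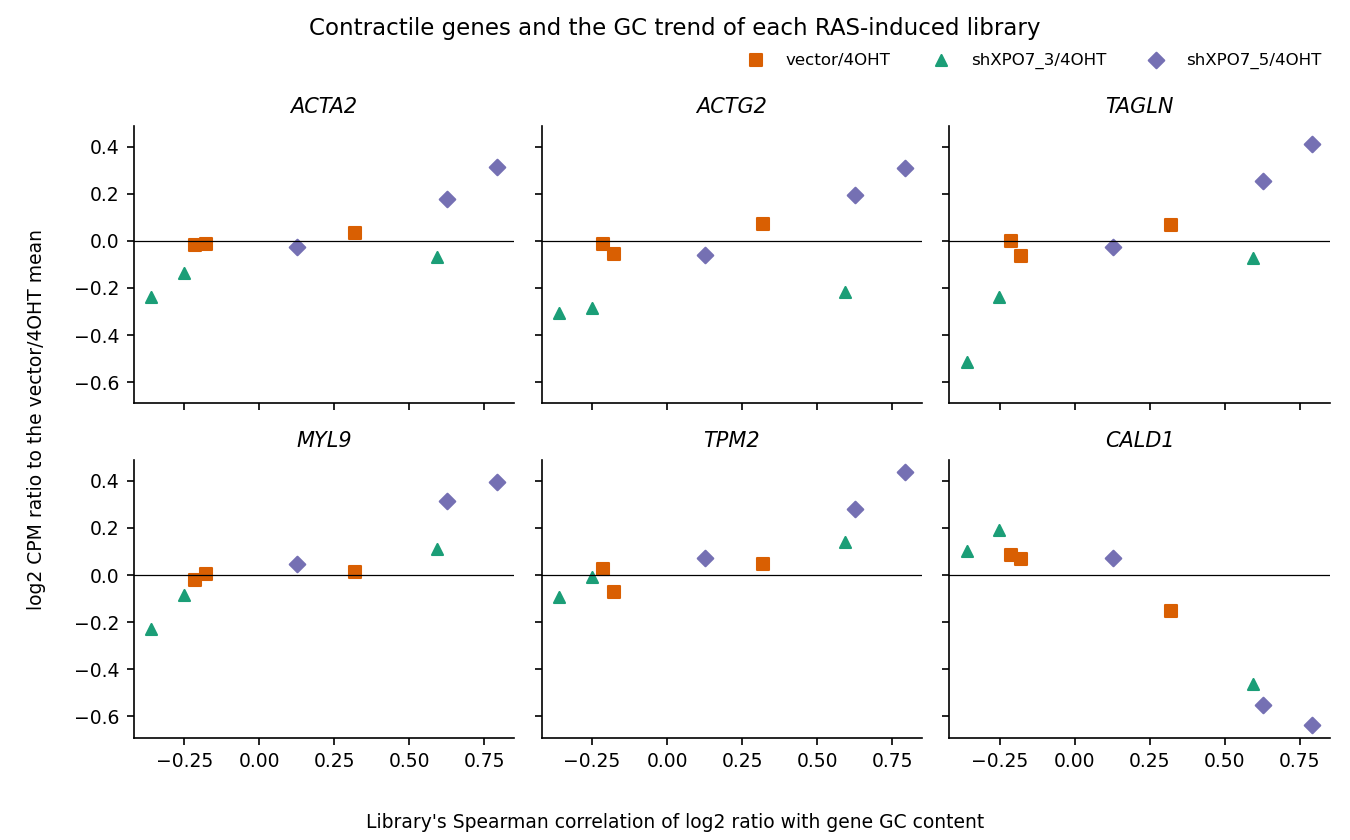
log2 CPM of 6 contractile genes relative to the vector/4OHT mean, against each RAS-induced library's Spearman correlation of log2 ratio with gene GC content, with 1 point per library. Points of TAGLN, MYL9 and TPM2 are highest in the shXPO7_5 libraries at 0.63 and 0.79 on the x axis, and CALD1 is lowest there.

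The family shares compare genes within a library. ACTA2 and ACTG2 were 4.22% ± 0.181 of the actins per kb with shXPO7_3 and 4.62% ± 0.0312 with shXPO7_5 (n = 3), and all libraries of both shRNAs lay below the lowest vector/4OHT library at 4.92%. The TAGLN share was 53.0% ± 2.65 with shXPO7_3, below every vector/4OHT library, and 58.2% ± 1.19 with shXPO7_5, overlapping them. The CNN1 share was 2.24% ± 0.343 with shXPO7_3 and 3.24% ± 0.473 with shXPO7_5. The MYL9 share was 32.8% ± 3.21 and the tropomyosin share 62.3% ± 2.20 with shXPO7_5, above every vector/4OHT library, and both overlapped vector/4OHT with shXPO7_3, at 27.8% ± 2.83 and 58.9% ± 2.17. Across the knockdown libraries, these MYL9 and tropomyosin shares rose in the order of the libraries' GC correlations. They were lowest in shXPO7_3 A (25.3% and 56.7%, correlation -0.36) and highest in shXPO7_5 B (36.0% and 64.6%, correlation 0.79). The actin, transgelin, calponin and myosin heavy chain shares did not follow that order. In shXPO7_3 T, at a correlation of 0.59, the actin, transgelin and calponin shares were 4.01%, 54.0% and 2.56%. In shXPO7_5 A, at the lower correlation of 0.13, they were higher, at 4.63%, 56.8% and 2.81%. The part of the GC trend in the shares was not tested. Each exact permutation p among the 24 share comparisons was 0.1 or more, the least that 3 against 3 allows.

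The lists around the contractile genes were set against the same background. Of 56 tested genes in the 6 lists, none was called with shXPO7_3 and 1 with shXPO7_5 by edgeR, where 11 and 25 had an unadjusted p under 0.05 and DESeq2 called 3 and 7. Over all genes tested the called shares were 0.124% and 0.589%, and the shares at an unadjusted p under 0.05 were 6.41% and 21.6%. DESeq2 called 82 and 433 of all genes. The 1 list gene called with shXPO7_5 by edgeR was ITGA11, at 0.60 (adjusted p = 0.0265), and it was at 0.45 with shXPO7_3 (adjusted p = 0.156). Without shXPO7_5 library A, 28 list genes were called with shXPO7_5, among 3789 called in all 15284 genes tested. The 3 regulators SRF, MYOCD and KLF4 were at 0.10, 0.33 and -0.34 with shXPO7_3 (adjusted p = 0.999, 0.305 and 0.792) and at 0.35, 0.0036 and -0.43 with shXPO7_5 (adjusted p = 0.133, 0.984 and 0.196). Between the shRNAs, none of the 56 genes was called by edgeR or DESeq2, and 15 had an unadjusted p under 0.05.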

How the data were processed

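RNA was sequenced from stranded mRNA libraries of 12 samples in 4 groups of 3. Groups were taken from the sample labels, and the study's description gives the vector of the uninduced and control groups. The shRNA that the labels write as shXPO7_5 was taken to be the one the study calls shXPO7_X5. The authors deposited raw read counts per gene, and the submitters' notes list CASAVA 1.8.4 with TopHat2 2.0.11, featureCounts 1.18.0 and hg19 (GRCh37). Annotation, strand setting and the treatment of multiply matching reads were not given in the sources used here. All 92 spike-in rows were 0 and were left out.

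Counts were fitted with edgeR 4.0.16 (R 4.3.3, limma 3.58.1) using filterByExpr, TMM factors and a quasi-likelihood model of all 12 libraries with 4 groups and no covariates. The Benjamini-Hochberg adjustment of p-values ran over 15284 genes, with a threshold of 0.05 for a call. Total counts of 28534141 to 60397769 set the precision, and 3 counts are the least level taken as detectable. Levels per kb used the principal transcript. GC content and lengths came from GENCODE release 29 and covered 97.3% of genes tested, matched by identifier because that annotation is on GRCh38. Family shares were compared by exact two-sided permutation. Chi-square values of 4.27 to 56.2 per gene between libraries of a group exceeded sampling noise, so none was counted as a repeat. The fit was tested on simulated counts.

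The results were recomputed with RLE or upper-quartile factors, other filters, DESeq2 1.42.0, a replicate block, a GC content and length offset, a fit to 2 groups, an added minimum of 1 for the log2 fold change, and each library left out. The genes named were all 10 contractile genes, XPO7, all regulators, up to 4 called genes of each other list by size of change, the relatives of a contractile gene and the 5 genes most like ACTA2. Also named were list genes called in the direction opposite to most of their list, and PPP1R12A, PPP1CB, ROCK1 and ROCK2, which were not called. Genes that share exon bases with a contractile gene were named as well. Marker genes outside these rules were named after their values were seen. The contractile genes, lists and rules were chosen with earlier results of these data known.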

Additional observations from a re-analysis of the deposited data

Results flagged for a closer look

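The targeted gene differed between the shRNAs. XPO7 was higher with shXPO7_5 than with shXPO7_3 by 0.92 on the log2 scale (SE 0.07, edgeR quasi-likelihood adjusted p = 0.000387), in 3 of 3 libraries, so the depth of knockdown was not equal when the contractile genes were compared between them. Its part in those differences was not tested.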

How the results depend on the processing

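The count of 8 contractile genes called in OIS was 7 with a filter of 1 CPM, which left MYH11 untested, 7 to 8 with single libraries left out, 6 where an absolute log2 change of 1 or more was also asked for, and 8 under each other setting. Of 596 refitted fold changes of contractile genes, 558 kept their direction and side of the threshold, 20 became called, 1 was lost and 17 changed sign. The OIS value of TPM2 became 0.070 with the GC content and length offset, 0.071 with that offset and the replicate block, and -0.093 to 0.0035 with single libraries left out, which gave -0.065 to 0.30 for CALD1. For shXPO7_3, TPM2 became -0.0020 with the offset, -0.0019 with offset and block, and -0.051 to 0.068 with single libraries left out. The same omissions gave -0.26 to 0.58 for MYH11, -0.16 to 0.14 for CALD1, -0.050 to 0.027 for LMOD1 and -0.16 to 0.016 for MYL9. MYH11 ran from -0.47 to 0.40 with shXPO7_5 and from -0.40 to 0.069 between the shRNAs.

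With shXPO7_3, 2 contractile genes were called with the offset and 2 with offset and block. Of the genes in the surrounding lists, 5, 6 and 3 were called with the offset, offset and block, and DESeq2. With shXPO7_5, 0 to 7 contractile genes and 0 to 28 list genes were called with single libraries left out, the highest without library A. Without that library 3789 of all genes were called. The list count of 1 became 0 with an absolute log2 change of 1 or more or a fit to 2 groups, 2 with RLE factors or a filter of 1 CPM, 3 with the replicate block, 4 with every gene of at least 1 count, 5 with the offset, and 7 with offset and block or DESeq2. Between the shRNAs, 2 contractile genes were called with every gene of at least 1 count, 1 with the offset, 4 with offset and block, and 2 by DESeq2. In OIS, 10 of the 38 list genes passed an absolute log2 change of 1 or more, as did 2573 of the 7777 genes called in all. The causes were not tested. Over all genes, the offset and DESeq2 called 304 and 82 with shXPO7_3, where 19 were called without them, 431 and 433 with shXPO7_5 (90 without), and 23 and 27 between the shRNAs (2 without). Offset and block called 315 with shXPO7_3, 766 with shXPO7_5 and 37 between the shRNAs. With shXPO7_5, all genes called were 127 with RLE factors, 135 with a filter of 1 CPM and 149 with the replicate block. They were 217 with every gene of at least 1 count, 12 with a fit to 2 groups and 8 at an absolute log2 change of 1 or more. Between the shRNAs, the filter of at least 1 count gave 20 called among 31672 genes tested.

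Upper-quartile factors moved the OIS median of all genes from -0.0068 to -0.105 and the share of called genes that were higher from 48.8% to 38.3%. Deviations from the group means correlated at -0.23 to 0.59 for the same letter and at -0.62 to 0.51 for other letters. A correlation over 0.1 was seen in 8 of 15 same-letter pairs and in 14 of 39 others. Whether the replicate letters pair the libraries cannot be told from these values, since the ranges overlapped and the libraries also differed in GC trend. With the letter as a block, in which vector library C had a letter of its own and carried no weight, 8, 0, 0 and 0 contractile genes were called in the 4 comparisons, and 13 genes in all with shXPO7_3 and 149 with shXPO7_5. MYH11, at 3 to 27 counts a library, was limited most by depth. For genes that were not called, the 95% intervals given show the range of fold changes that 3 libraries a group could not tell apart from the estimate.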
